A study of Bos taurus with 8 samples.

Results

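Interferon-stimulated genes were described in the liver of Japanese Black fetal calves from dams on low or high nutrition. The set held 8 listed genes, ISG15, MX1, MX2, IFI6, IFIH1, RSAD2, IRF7 and OAS2, and its members were chosen by matching the RefSeq accession of each array probe to these genes. There were 12 such probes for 7 of the 8 genes, and each of the 7 had at least 1 detected probe (11 probes in all), among 10861 genes with a detected probe. Detection of a probe required a spot well above background on 4 or more of the 8 arrays. IFIH1 had 0 matched probes and was not analysed here.

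Liver RNA came from 4 fetuses of the LN group (fetuses L5, L6, L8 and L9), whose dams received 60% of their nutritional requirement through gestation, and from 4 fetuses of the HN group (L1, L2, L3 and L10), whose dams received 120%. All were taken at 8.5 months after conception, and no dam was fed at the requirement itself. The study chose the fetuses of lowest body weight from LN and of highest body weight from HN, and all came from male-sorted semen of a single sire. The labels give 1 fetus per array, which is how the arrays were counted here, although the design text of the series mentions RNA pooled by group. The 4 LN arrays lay on 1 slide and the 4 HN arrays on another, so a difference between groups and one between slides or scans cannot be told apart. On the 8 arrays between 32635 and 34369 of 43803 spots were well above background, and 0 spots were saturated. The hepatocyte markers were present: ALB, APOA1, TTR and TF, which encode secreted liver proteins, had mean log2 signals between 17.8 and 18.4 in both groups.

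Interferons are secreted proteins that warn cells of infection. Type I and type III interferons bind their receptors, the kinases JAK1 and TYK2 are activated there, and transcription factor complexes that contain IRF9 switch on a shared set of genes. ISG15 is a ubiquitin-like protein attached to other proteins, MX1 and MX2 are dynamin-like GTPases that block viruses, IFI6 is a small membrane protein, and RSAD2 (viperin) is a radical SAM enzyme that makes a chain-terminating nucleotide. OAS2 makes the 2',5'-oligoadenylates that activate RNase L, IRF7 is the transcription factor that amplifies type I interferon production, and IFIH1 (MDA5) is a cytosolic sensor of long double-stranded RNA. Many of these genes are also expressed at a low level in tissue with no infection. In the reference annotation MX1 and MX2 are neighbours, RSAD2 lies beside CMPK2, a gene of the same response, and OAS2 lies beside OAS1Y.

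The LN and HN fetuses overlapped for every one of the 7 measured members, and 4.14% of all detected genes had groups without overlap. Of the 7 measured members, 0 passed an adjusted p of 0.05 in limma (2-sided, Benjamini-Hochberg adjustment over all 33440 detected probes), where 0% of all detected genes did, and 0 passed an unadjusted p of 0.05, where 6.05% of all detected genes did. On the log2 scale 4 members were higher and 3 lower in LN, with a median LN minus HN of 0.038 beside 0.0075 over all genes. With 75th percentile scaling the split was 2 higher and 5 lower with a median of −0.043, with normexp background correction 2 and 5 with −0.015, and the median was 0.35 without L1 and −0.17 without L10. All 7 had the same highest fetus: the highest signal of each of the 7 was in HN fetus L1, as it was for 6.2% of all genes, and the lowest of 5 of the 7 was in HN fetus L10, where 0.985% of all genes had both their highest signal in L1 and their lowest in L10. In bulk liver, fewer cells of a type and less RNA per cell cannot be told apart. Since the design text mentions pooled RNA, the p-values measure only the spread between these 8 samples.

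**Figure D1:**
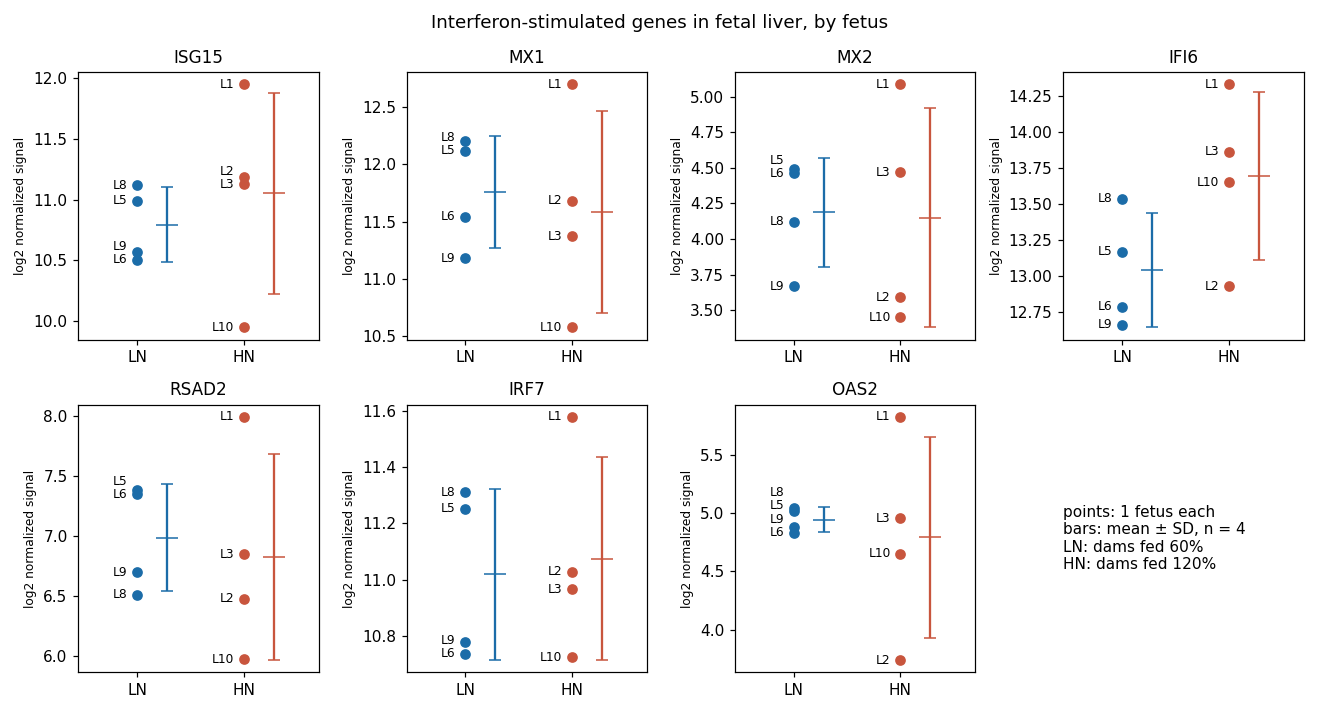
Quantile-normalized log2 signal of the 7 measured interferon-stimulated genes (vertical axes, with a scale for each gene), in the 4 LN and 4 HN fetuses. Points are single fetuses with their names, and bars are group means with SD (n = 4). L1 is the highest point in every panel, and the LN and HN points overlap in every panel.

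ISG15 (NM_174366) was the first of the effectors examined. Its log2 signal was 10.99 in L5, 10.50 in L6, 11.12 in L8 and 10.57 in L9 of the LN group, and 11.95 in L1, 11.19 in L2, 11.12 in L3 and 9.95 in L10 of the HN group. All 4 LN fetuses therefore lay inside the range of the HN group, between L10 and L1. The LN mean was 10.79 ± 0.31 (SD, n = 4) and the HN mean 11.05 ± 0.83 (SD, n = 4). The difference, LN minus HN, was −0.26 on the log2 scale (SE 0.38, limma adjusted p = 0.929, exact permutation p = 0.514), smaller than the SD between HN fetuses. It was 0.040 without L1 and −0.63 without L10, where it passed an unadjusted limma p of 0.05 and not the adjusted one. A further ISG15 probe gave a difference of −0.23, and over the 8 fetuses both probes ran together with a Pearson correlation of 0.994. Their difference varied with an SD of 0.070 across fetuses, against an SD of 0.605 for the gene between fetuses. Both probes read the same labelled RNA on each array.

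MX1 (NM_173940) had 3 detected probes. The brightest gave log2 signals of 12.12 in L5, 11.54 in L6, 12.20 in L8 and 11.18 in L9, and of 12.70 in L1, 11.68 in L2, 11.37 in L3 and 10.58 in L10. Again the 4 LN values lay between those of L10 and L1. LN minus HN was 0.18 (SE 0.43, limma adjusted p = 0.956, exact permutation p = 0.743), and the other probes gave 0.13 and 0.14. It was 0.55 without L1 and turned to −0.16 without L10. The 3 MX1 probes correlated over the 8 fetuses with Pearson's r between 0.972 and 0.998, and each had its highest signal in L1 and its lowest in L10.

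MX2 (NM_173941), the neighbour of MX1, was measured by 1 probe close to the dim end of the array, though well above background on all 8 arrays. Its log2 signal was 4.50 in L5, 4.46 in L6, 4.12 in L8 and 3.67 in L9, and 5.09 in L1, 3.59 in L2, 4.47 in L3 and 3.45 in L10. The values of the groups interleaved, with L1 highest and L10 lowest. LN minus HN was 0.038 (SE 0.37, limma adjusted p = 0.991, exact permutation p = 0.886), and its direction turned to −0.17 when arrays were scaled to their 75th percentile and to −0.015 after normexp background correction. It also turned without L5, L6, L2 or L10 (−0.065, −0.054, −0.15 and −0.20).

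IFI6 (NM_001075588) had the difference furthest from 0 among the 7 members. Its log2 signal was 13.17 in L5, 12.79 in L6, 13.54 in L8 and 12.66 in L9, and 14.33 in L1, 12.93 in L2, 13.86 in L3 and 13.65 in L10. Of the HN fetuses, L1, L3 and L10 lay above every LN fetus, and L2 lay among the LN values. The LN mean of 13.04 ± 0.40 was below the HN mean of 13.69 ± 0.58 (SD, n = 4 each), a ratio of LN to HN of 0.635. The difference of −0.66 (SE 0.31, 95% interval −1.35 to 0.040) had an unadjusted p of 0.0618 and an adjusted p of 0.785 in limma, and an exact permutation p of 0.114, where 0.0286 is the smallest p that 35 divisions of 8 fetuses allow. It passed neither threshold. With slide position as a block, which sets 1 LN beside 1 HN array, the unadjusted p was 0.0253 (adjusted p 0.940 in limma) and IFI6 was lower in LN at all 4 positions, and with the trend and robust settings of eBayes it was 0.0487 (adjusted p 0.792). IFI6 was also the member whose fetus order departed from the others: L10, lowest for ISG15, MX1, MX2, RSAD2 and IRF7, ranked 3 from the top for IFI6.

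RSAD2 (NM_001045941) had log2 signals of 7.38 in L5, 7.35 in L6, 6.51 in L8 and 6.70 in L9, and of 7.99 in L1, 6.48 in L2, 6.85 in L3 and 5.98 in L10. L5 and L6 came next after L1 here, whereas L8 came next for MX1 and IRF7. LN minus HN was 0.16 (SE 0.41, limma adjusted p = 0.960, exact permutation p = 0.771). It was 0.55 without L1, −0.12 without L10 and 0.031 with normexp. A further RSAD2 probe was well above background on 1 array, that of L1, at a log2 signal of 3.20. It was not called detected, and the array on which it rose above background was the one with the highest signal of the brighter RSAD2 probe.

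OAS2 (NM_001024557) combined the tightest LN group with a wide HN group. Its log2 signal was 5.02 in L5, 4.83 in L6, 5.05 in L8 and 4.88 in L9, and 5.83 in L1, 3.74 in L2, 4.96 in L3 and 4.65 in L10. The 4 LN fetuses fell within a narrow band (SD 0.10), and L1 and L2 of the HN group lay well above and well below that band (SD of HN 0.86). LN minus HN was 0.15 (SE 0.37, limma adjusted p = 0.957, exact permutation p = 0.657), and it turned to −0.20 without L2, to −0.043 with 75th percentile scaling and to −0.0054 with normexp.

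IRF7 (NM_001105040), the transcription factor of the set, varied least under quantile normalization (with normexp, MX2 and OAS2 varied less). Its log2 signal was 11.25 in L5, 10.74 in L6, 11.31 in L8 and 10.78 in L9, and 11.58 in L1, 11.03 in L2, 10.97 in L3 and 10.73 in L10. The LN fetuses fell into a higher pair, L5 and L8, and a lower pair, L6 and L9, and the HN values ran from just below the lower pair to above the higher one. LN minus HN was −0.055 (SE 0.22, limma adjusted p = 0.975, exact permutation p = 0.914), and it turned to 0.039 without L6, 0.025 without L9 and 0.11 without L1. The other IRF7 probe gave −0.046 and followed the first with a Pearson correlation of 0.992.

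**Figure D2:**
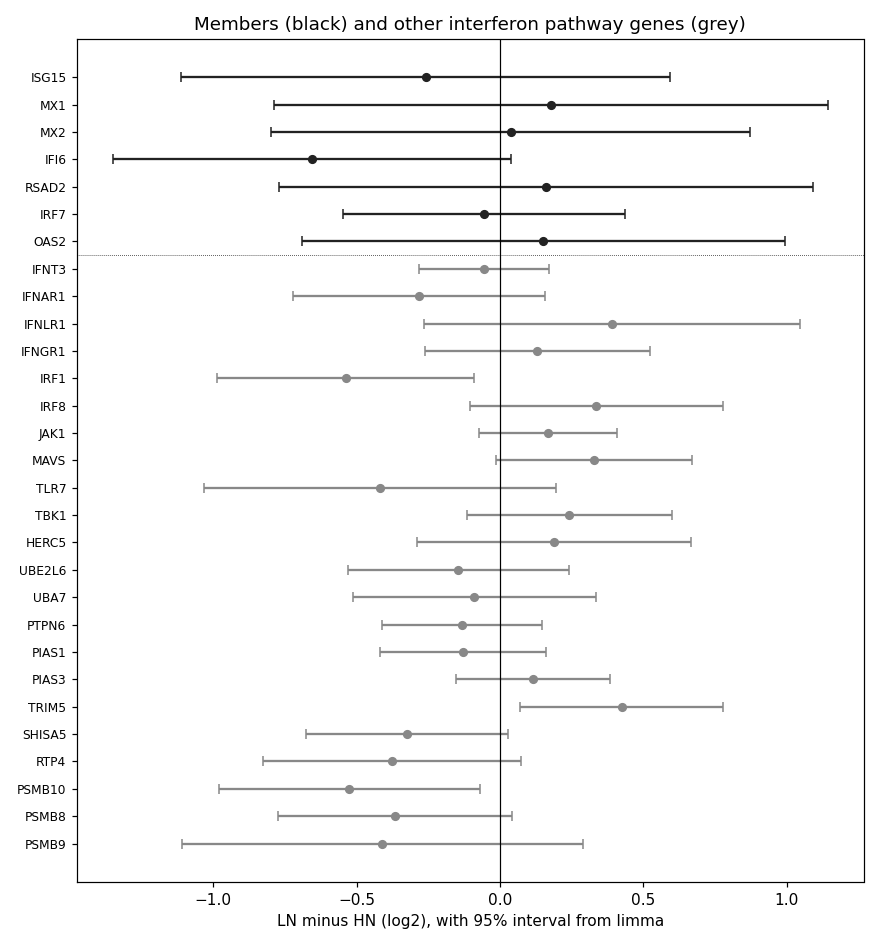
Difference between the groups (LN minus HN, log2 scale, horizontal axis) with its 95% interval from limma, for the 7 members in black and for 22 other genes of the interferon pathway in grey, 3 of each role with the lowest p where as many were detected. The interval of every member spans 0, and those of IRF1, PSMB10 and TRIM5 do not, before adjustment for multiple tests.

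The members varied widely between fetuses. The SD within groups was 0.71 for MX1, 0.68 for RSAD2, 0.62 for ISG15, and 0.61 for both OAS2 and MX2, against a median of 0.23 over all detected genes. These placed MX1 at percentile 94.6 of the detected genes, RSAD2 at 94.0, ISG15 at 92.6, OAS2 at 92.3 and MX2 at 92.1. IFI6 lay at percentile 87.8 with an SD of 0.50, and IRF7 at 71.7 with 0.33. For the dim probes these values depended on the background: with normexp, chosen for this after seeing the data, the SD was 0.14 for MX2 (percentile 34.6) and 0.20 for OAS2 (percentile 60.8), while MX1, ISG15, IFI6 and RSAD2 lay between percentiles 94.7 and 98.3. The percentiles come from 1 probe per gene and are a description with no test.

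The HN fetuses were the more widely spread for all 7 measured members, while 46.7% of all detected genes had a larger SD in HN than in LN. The SD of HN over that of LN was 8.23 for OAS2, 2.71 for ISG15, 2.01 for MX2, 1.93 for RSAD2, 1.81 for MX1, 1.47 for IFI6 and 1.19 for IRF7. For ISG15, MX1, MX2, RSAD2 and IRF7, L1 and L10 were the ends of the HN group, and for OAS2 and IFI6 the ends were L1 and L2. Signal in L1 over that in L10 was 4.36-fold for MX1, 4.05-fold for RSAD2, 4.00-fold for ISG15 and 3.11-fold for MX2, and 2.26-fold, 1.81-fold and 1.60-fold for OAS2, IRF7 and IFI6. With normexp the HN SD was also the larger for all 7 (46.7% of all genes), the ratio for OAS2 was 6.92, and L1 over L10 was 2.53-fold for RSAD2, 1.42-fold for OAS2 and 1.27-fold for MX2. When L1 was left out, a choice made after seeing the data, the HN group was still the wider for 5 of 7 members, as it was for 49.3% of all genes, and RSAD2 and IRF7 then had the smaller SD in HN. The members share their arrays and their fetuses, so the 7 are not separate pieces of evidence, and the difference in spread was not tested.

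**Figure D3:**
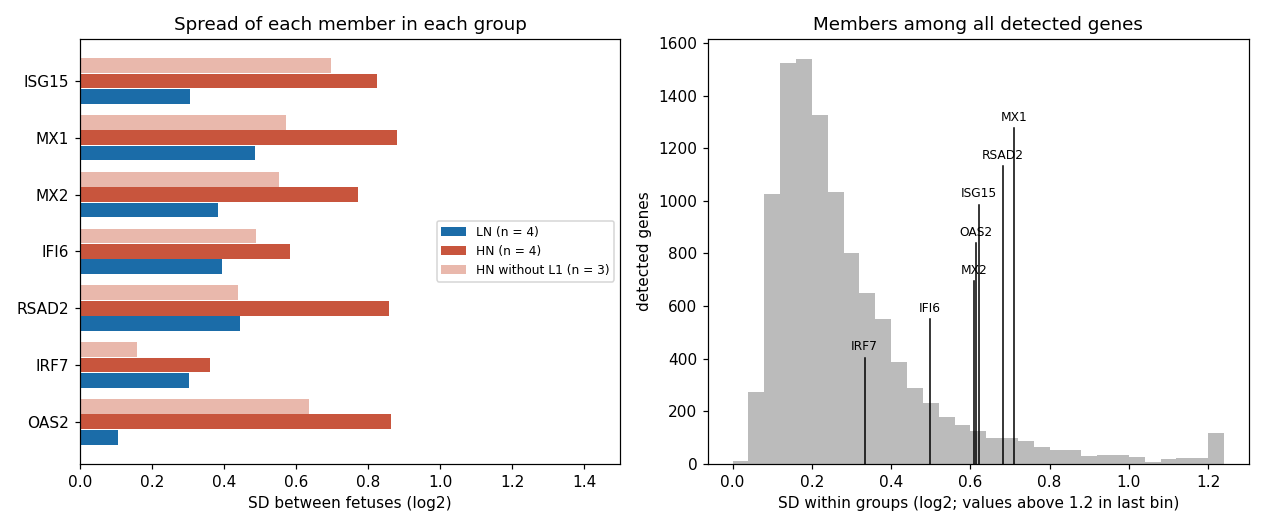
Left: SD between fetuses of each member's log2 signal (horizontal axis) in LN (n = 4), in HN (n = 4) and in HN without L1 (n = 3). Right: number of detected genes (vertical axis) by SD within groups on the log2 scale, with a line for each member whose height serves only to place its name. HN bars are longer than LN bars for all 7 members, and MX1, RSAD2, ISG15, OAS2 and MX2 lie in the upper tail of the histogram.

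Averaged over the 7 members, the deviation from the mean of all fetuses was 0.93 in L1 on the log2 scale and −0.57 in L10, both of the HN group. The LN fetuses ranged from −0.36 in L9 to 0.21 in L5, and L2 and L3 of the HN group were at −0.33 and 0.092. The whole LN range therefore lay inside that of HN, with an SD of 0.256 in LN and 0.659 in HN.

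The members were positively correlated over the fetuses, some pairs weakly. Over the 21 pairs of members, Pearson's r over 8 fetuses had a median of 0.657 and ran from 0.259 (IFI6 and RSAD2) to 0.921 (MX1 and IRF7), whereas the median over all pairs of detected genes was 3.8e-04. By an exact permutation test of each pair, added after seeing the data, 4 of the 21 passed an adjusted p of 0.05 (Benjamini-Hochberg over the 21 pairs) for Pearson's r and 2 for Spearman's rho. The pairs share arrays, fetuses and normalization. The closest pairs were MX1 with IRF7 (Spearman's rho 0.929), MX2 with RSAD2 (r 0.913, rho 0.952), ISG15 with MX1 (r 0.882, rho 0.690) and ISG15 with IRF7 (r 0.878, rho 0.810). The order of fetuses below L1 differed between members: L8 came next for MX1 and IRF7, L5 for MX2 and RSAD2, and L2 for ISG15, and Spearman's rho was 0.333 for ISG15 with RSAD2 and 0.190 for IFI6 with RSAD2.

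These correlations rested largely on L1. Without L1 the median r over the 21 pairs was 0.339, without L10 it was 0.658, and without both it was 0.299, with a range from −0.467 to 0.895. MX1 with IRF7 kept an r of 0.895 without L1 and L10, MX2 with RSAD2 0.759 and ISG15 with IRF7 0.751, whereas ISG15 with MX1 dropped to 0.499 and ISG15 with RSAD2 turned to −0.467. Taking out the group means in place of any fetus left the median at 0.693.

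The genes whose signal most resembled the mean of the 7 standardized members over 8 fetuses were ZNFX1 (Pearson's r 0.966), IFIT3 (0.945), OAS1Y (0.924), IFI27 (0.917), PARP9 (0.917), DEPDC7 (0.916), PARP14 (0.915), IRF9 (0.911), CYLD (0.909) and MTHFD1 (0.906). Of these 10, 7 were on the list of other interferon pathway genes, and USP18 came soon after, at rank 13 of 10854 genes. USP18 was singled out after its values were seen. IFIT3 binds foreign RNA together with its relatives, OAS1Y is a bovine 2',5'-oligoadenylate synthetase, PARP9 and PARP14 are ADP-ribosyltransferase family members, and USP18 removes ISG15 from proteins and dampens receptor signalling. Leaving out L1 moved IFIT3 to rank 22, OAS1Y to 41, ZNFX1 to 49 and PARP9 to 66, and the other 6 to ranks between 197 and 586.

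These 10 genes were chosen for their likeness to the members, so their order of fetuses and the overlap of the diets follow from that choice. IFIT3 had log2 signals of 4.32 in L5, 4.10 in L6, 4.15 in L8 and 3.24 in L9, and of 4.87 in L1, 3.60 in L2, 4.15 in L3 and 3.31 in L10. ZNFX1, an RNA helicase, had 11.22 in L5, 11.18 in L6, 11.34 in L8 and 10.75 in L9, and 11.93 in L1, 11.02 in L2, 11.35 in L3 and 10.75 in L10. Both were highest in L1 and low in L9 and L10, and LN minus HN was −0.028 (SE 0.36, limma adjusted p = 0.992) for IFIT3 and −0.14 (SE 0.25, limma adjusted p = 0.943) for ZNFX1.

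The rest of the interferon pathway was followed on a list of 129 further gene symbols in 8 roles, of which 3 are older names of genes also listed by their current name (DDX58, MB21D1 and TMEM173, each with 0 matched probes). Of the 129, 88 had a matched probe and 78 a detected one. The top 100 genes by likeness to the members held 15 of these 78, or 19.2%, where the 100 make up 0.921% of all genes compared, and 7 of the 78, or 8.97%, when L1 was left out. The median r with the member mean was 0.657 for the 5 genes of ISG15 conjugation, 0.624 for 29 other antiviral effectors (28 of them above 0) and 0.510 for 10 JAK-STAT and IRF factors. It was 0.365 for 13 sensors and adaptors, 0.353 for 11 genes of antigen presentation, 0.123 for 5 receptors and −0.363 for 4 negative regulators, beside −0.011 over all genes. Without L1 the order of the roles changed: the medians were 0.468 for the other effectors, 0.336 for sensors and adaptors, 0.335 for ISG15 conjugation, 0.259 for JAK-STAT and IRF factors, 0.162 for receptors, 0.142 for antigen presentation and 0.0021 for negative regulators, beside 0.018 over all genes. These medians carry no test.

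**Figure D4:**
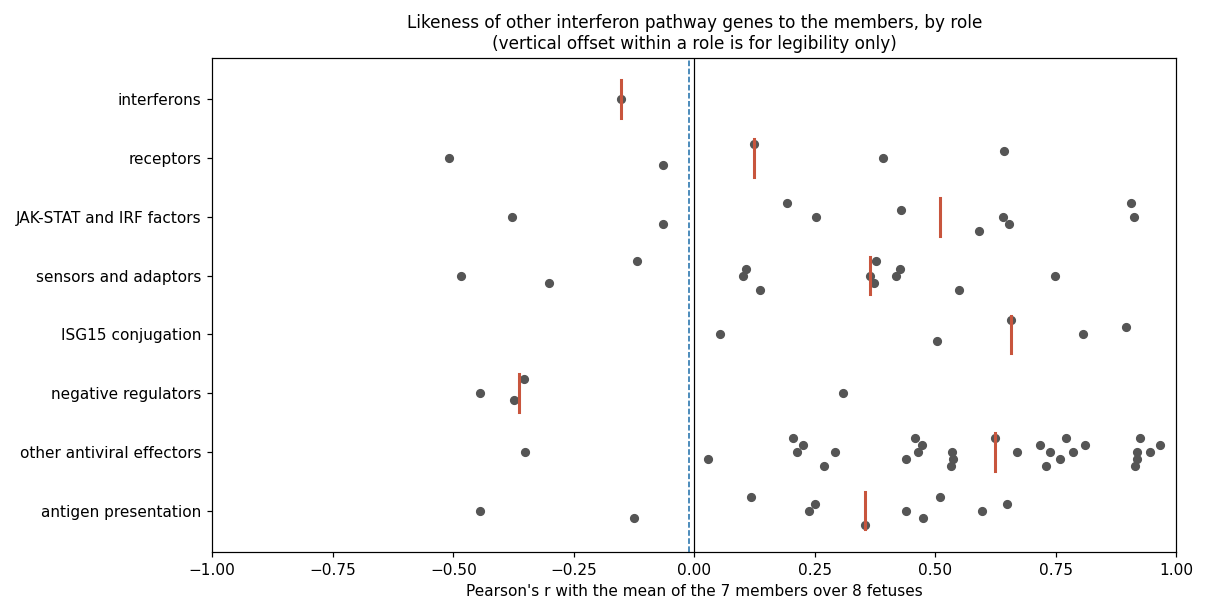
Pearson's r over 8 fetuses (horizontal axis) between each detected gene of the interferon pathway outside the members and the mean of the 7 standardized members, by role (rows). Points are genes, red bars are the medians of a role, and the dashed line is the median over all 10854 genes. Most antiviral effectors and ISG15 conjugation genes lie to the right of the dashed line, and 3 of the 4 negative regulators lie to its left.

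Of 18 listed interferon genes 8 had a matched probe, and nearly all of these 8 were undetected. The other listed interferons were not measured. Of the 8, 1 was detected, IFNT3, of the trophoblast interferon family, with a log2 signal between 4.90 and 5.04 in all 8 fetuses. IFNG, which encodes type II interferon, had a pair of probes, neither well above background on any array. An IFNB3 probe was well above background on L9 and L1 only, an IFNW1 probe on L6 and L9 only, and an IFNAC probe on L3 only. IFNT3 had an r of −0.153 with the member mean, which was −0.719 without L1, and differed between diets by −0.056 (SE 0.099, limma adjusted p = 0.942). Its dim signal hardly varied, with an SD within groups of 0.053 against a median of 0.23 over all detected genes, so these correlations rest on small differences. The type I interferon genes of cattle include near-identical copies, so which of them a probe reads is uncertain.

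Receptors and the factors below them followed. Of 5 detected receptor genes 0 passed an unadjusted p of 0.05 in limma, IFNAR1 at −0.28 (SE 0.19), IFNLR1 at 0.39 (SE 0.29) and IFNGR1 at 0.13 (SE 0.17) having the lowest p. Among 10 JAK-STAT and IRF factors 1 had an unadjusted limma p under 0.05, as 6.05% of all genes did. This was IRF1, a transcription factor induced by type I and type II interferon, with log2 signals of 10.58 in L5, 10.29 in L6, 10.16 in L8 and 9.88 in L9, and of 11.12 in L1, 10.52 in L2, 10.92 in L3 and 10.50 in L10. Of the LN fetuses, L5 alone overlapped with the HN group. LN minus HN of IRF1 was −0.54 (SE 0.20, unadjusted p = 0.0241, limma adjusted p = 0.760, exact permutation p = 0.0857), so it did not pass the adjusted threshold. JAK1, a kinase bound to the receptors, was higher in each LN fetus (12.33 to 12.60) than in each HN fetus (12.28 to 12.31). The difference was 0.17 on the log2 scale (SE 0.11, unadjusted limma p = 0.149, limma adjusted p = 0.823, exact permutation p = 0.0286, the smallest possible). Of the 78 other pathway genes 2 had groups without overlap, where 4.14% of all genes did. IRF8 differed by 0.34 (SE 0.19, limma adjusted p = 0.803).

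Sensors and adaptors (13 detected) and ISG15 conjugation genes (5 detected) had 0 genes past an unadjusted limma p of 0.05. MAVS, the mitochondrial adaptor of the RNA sensors, was 0.33 higher in LN (SE 0.15, limma adjusted p = 0.785), with 9.63 to 10.21 in LN and 9.45 to 9.76 in HN. TLR7 was at −0.42 (SE 0.27) and TBK1 at 0.24 (SE 0.16), and the enzymes that attach ISG15, UBA7, UBE2L6 and HERC5, at −0.090, −0.15 and 0.19. Of the 4 negative regulators, PTPN6, PIAS1 and PIAS3 differed by −0.13, −0.13 and 0.11, and 0 passed the unadjusted threshold.

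Among the 29 other antiviral effectors TRIM5, a capsid-binding restriction factor, was the 1 gene with an unadjusted limma p under 0.05 (6.05% of all genes). It had log2 signals of 9.72 in L5, 9.71 in L6, 10.14 in L8 and 9.995 in L9, and of 9.58 in L1, 9.52 in L2, 9.63 in L3 and 9.15 in L10. Every LN fetus lay above every HN fetus, and 4.14% of all genes had groups without overlap. The difference was 0.42 (SE 0.16, unadjusted p = 0.0245, limma adjusted p = 0.760, exact permutation p = 0.0286). SHISA5 and RTP4 differed by −0.32 (SE 0.15) and −0.38 (SE 0.20), with limma adjusted p of 0.787 and 0.792.

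A pair of effectors, chosen after their values were seen, varied far more than the members. OAS1X was well above background on 5 of 8 arrays: its log2 signal was 5.78 in L6, 7.35 in L8, 8.06 in L1, 6.26 in L2 and 6.40 in L10, and between 0.70 and 0.77 in L5, L9 and L3, with no order by diet. OAS1X, OAS1Y and OAS1Z are close copies, so which of them a probe reads is uncertain. SAMD9, an antiviral restriction factor, was 8.02 in L1 and 7.29 in L10, and between 3.05 and 5.03 in the other 6 fetuses. SAMD9 was thus high in L10, where most members were lowest.

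Antigen presentation genes (11 detected, 10 of them lower in LN, as were 48.4% of all genes) had 1 gene past an unadjusted limma p of 0.05 (6.05% of all genes). PSMB10, an interferon-inducible subunit of the immunoproteasome, had log2 signals of 8.17 in L5, 7.92 in L6, 8.35 in L8 and 7.47 in L9, and of 8.76 in L1, 8.43 in L2, 8.30 in L3 and 8.51 in L10. L8 alone of the LN fetuses reached the HN range. LN minus HN was −0.53 (SE 0.20, unadjusted p = 0.0282, limma adjusted p = 0.765, exact permutation p = 0.0571), and the other inducible subunits, PSMB8 and PSMB9, were at −0.37 (SE 0.18) and −0.41 (SE 0.31).

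Counted together, 57 of the 78 other pathway genes were lower in LN and 21 higher by any amount, with a median of −0.096, where 48.4% of all genes were lower. Of the 78, 2 were lower in LN at an unadjusted limma p of 0.05, where 2.75% of all genes were, 1 was higher, and 0 passed the adjusted threshold. The genes were followed on the same 8 arrays and many move together, so the 57 are not independent. Without L9, which had the lowest signal of IRF1, PSMB8, PSMB9, PSMB10, RTP4 and SHISA5, 0 of the 78 passed the unadjusted threshold, where 5.41% of all genes did, and without L2, L3 and L6 in turn 7, 6 and 5 did, where 5.76%, 7.76% and 5.89% of all genes did.

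Markers of other liver cell types also moved between fetuses. All 6 detected erythroid markers were higher in LN (median 1.27 on the log2 scale, 0 at an unadjusted limma p of 0.05), with summed linear signals from 14513 to 139461 in LN and from 7872 to 32337 in HN. HBM, a globin gene, was highest in L5 at 11.72 and lowest in L1 at 4.74. Of 9 neutrophil markers 8 were higher in LN, 4 of them at an unadjusted limma p of 0.05 (3.30% of all genes were higher at that p) and 0 after adjustment, and 3 had groups without overlap (4.14% of all genes), with summed signals from 9826 to 28809 in LN and from 5419 to 13088 in HN. CATHL4, a granule peptide gene, differed by 1.78 (SE 0.54, limma adjusted p = 0.760, exact permutation p = 0.0286).

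L1 and L10, the fetuses at opposite ends for most members, were both low for the mean of the neutrophil markers, with deviations of −1.05 and −1.04. LTF, of the same list, went the other way in L1: it was highest there (11.38) and lowest in L10 (9.44). Macrophage markers (8 detected, 2 higher in LN, summed signals from 126738 to 194406 in LN and from 130968 to 211193 in HN) had a mean deviation of 0.22 in L1 and 0.16 in L10. CD163, a receptor of liver macrophages, was at −0.27 (SE 0.25, limma adjusted p = 0.874). Lymphocyte markers (8 detected, all 8 lower in LN, summed signals from 14330 to 18687 in LN and from 15620 to 20306 in HN) had a median difference of −0.14. The marker MS4A1 of B cells and the erythroid markers SLC4A1 and EPB42 were not well above background on 4 arrays.

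Over 8 fetuses the mean of the members had an r of 0.406 with macrophage markers, 0.014 with lymphocyte markers, −0.107 with erythroid markers, −0.381 with neutrophil markers and −0.434 with hepatocyte markers. It was 0.512 for 3 bile duct markers, of which 2 were higher and 1 lower in LN, 0.042 for 8 endothelial markers, 6 higher and 2 lower, and −0.186 for 7 stellate cell markers, 2 higher and 5 lower. The member of each list that differed most between diets was KRT7 (0.67, SE 0.27, limma adjusted p = 0.785, beside a list median of 0.0064), LYVE1 (0.29, SE 0.20, list median 0.10) and COL1A2 (−0.46, SE 0.25, list median −0.16). AFP, of the hepatocyte list, differed by 0.34 (SE 0.36). Its SD within groups was 0.60, against a median of 0.052 for that list, so AFP weighs heavily in the r of the hepatocyte markers. The median brightness of an array before normalization had an r of 0.401 with the members. These are descriptions of 8 points that share arrays, and the part of cell makeup or brightness in the members' spread was not tested.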

How the data were processed

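Liver RNA of 8 fetuses, 4 LN and 4 HN by the sample labels, was measured on 1-colour (Cy3) Agilent bovine arrays. The authors deposited scanner output of Agilent Feature Extraction 11.0.1.1, in which the processed intensity is background-subtracted and not normalized between arrays, and a table of log2 values for 31068 probes, quantile normalized by their methods. Here control and outlier spots were dropped, replicate spots were averaged as log2 intensities, and quantile normalization ran over 43637 probes. RefSeq accessions matched 26740 probes to 12603 genes of the ARS-UCD2.0 table. The array was designed on UMD 3.1, so no coordinates are given. Where several probes of a gene were detected (well above background on 4 or more arrays), the one of highest mean signal stood for it.

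The difference LN minus HN was fitted with limma 3.58.1 under R 4.3.3 (lmFit, eBayes, 2-sided, Benjamini-Hochberg over detected probes), with moderated SE. Exact permutation tests used the 35 divisions of 8 fetuses. The functions were tested on simulated data. The precision is limited by the number of arrays. Named genes are all members, 3 genes per role with the lowest limma p, the 10 genes most like the member mean, and the marker of each cell type with the largest difference. Members and lists were chosen with earlier results of these data known. Alternatives were 75th percentile scaling, normexp with an offset of 50, the deposited log2 values, all probes regardless of detection, only probes detected on all 8 arrays, trend and robust settings of eBayes, slide position as a block, the mean of a gene's probes, Student's test, and each fetus left out. Correlations and spread without L1 or L10, and spread with other scalings, were added after seeing the data. Promoter sequences were not used here. A few listed genes enter the counts but their own values are not reported here.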

Additional observations from a re-analysis of the deposited data

Results flagged for a closer look

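In groups of 4 fetuses, 86 checks of a single fetus lying far from the others gave 4 such cases, where chance gives about 1 in 20, and none concerned a member. IFNAR1 was low in L3 of the HN group, at a log2 signal of 5.59. IFNLR1 was high in L6 of the LN group, at 3.97. OAS1Y was low in L9 of the LN group, at 11.40, and DEPDC7 was high in L8 of the LN group, at 10.53.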

How the results depend on the processing

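Of 17 alternatives, 5 change the test or filter and leave every member's difference as it is. Over the other 12, 69 of 84 member differences kept their direction and 15 turned, and IFI6 was the only member that kept its direction in all 12 (−0.91 to −0.44). 0 members passed a limma adjusted p of 0.05 under any alternative. With 75th percentile scaling MX2 was at −0.17 and OAS2 at −0.043, and with normexp at −0.015 and −0.0054. MX2 was at −0.065 without L5 and −0.054 without L6, and IRF7 at 0.039 without L6 and 0.025 without L9. Without L1, ISG15 was at 0.040 and IRF7 at 0.11. Without L2, MX2 was at −0.15 and OAS2 at −0.20. Without L10, MX1 was at −0.16, MX2 at −0.20 and RSAD2 at −0.12. With a fetus left out, ISG15 ran from −0.63 (without L10) to 0.040, MX1 to 0.55, MX2 to 0.35, RSAD2 to 0.55 and OAS2 to 0.50 (each without L1), and IRF7 from −0.17 to 0.11. The median over the members ran from −0.17 without L10 to 0.35 without L1. Members at an unadjusted limma p of 0.05 numbered 1 (IFI6) with trend and robust settings (6.76% of all genes passed there) and 1 (IFI6) with slide position as a block (4.61%). Student's test gave 0 at its unadjusted p of 0.05 (7.23%). With a fetus left out, members at the unadjusted limma p numbered from 0 to 1, the 1 being IFI6 without L8 (6.03%) or L2 (5.76%) and ISG15 without L10 (3.76%). Other pathway genes at that p, 3 in the report, numbered 6 with 75th percentile scaling (7.11% of all genes passed there) and 5 each with normexp (7.90%), no filter on dim probes (7.32%), and trend and robust settings (6.76%), and from 0 (without L9) to 7 (without L2) with a fetus left out. The cause was not tested. No paired analysis was possible because the LN and HN fetuses share no replicate numbers, and slide position is given above as the only block. Dim probes such as those of MX2, OAS2 and IFIT3 limit what the scaling can settle.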
